A study of Homo sapiens with 5 samples.

Results

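The largest group of human histone genes lies on the short arm of chromosome 6. Protein-coding genes of GENCODE release 44 on GRCh37 (hg19) were taken when they lay between 26 and 28 Mb of that chromosome and their symbol began with H1-, H2AC, H2BC, H3C or H4C, or with HIST1H, as 1 gene still does in this annotation (HIST1H4B). This gave 50 of 20162 protein-coding genes, with 6 genes for H1, 11 for H2A, 12 for H2B, 10 for H3 and 11 for H4. They formed 3 runs, of 29 genes at chr6:26017260-26285866, of 5 genes at chr6:27093676-27115341 and of 16 genes at chr6:27775257-27861669.

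Histones H2A, H2B, H3 and H4 make up the core of the nucleosome, and H1 binds the DNA that links nucleosomes. The genes of these clusters are mostly replication-dependent: they are transcribed in S phase, they are intronless, and their mRNAs end in a stem-loop instead of a poly(A) tail. Many H2A and H2B genes stand back to back and share 1 promoter. Nrf2 is a transcription factor of the antioxidant response that binds antioxidant response elements, and HIF1α is the oxygen-regulated subunit of hypoxia-inducible factor, whose core site ends in CGTG.

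The peaks came from chromatin immunoprecipitation followed by sequencing (ChIP-seq) in BEAS-2B, an immortalized line of human bronchial epithelial cells. All cells were starved of serum overnight. The control cells then received no iAs (inorganic arsenic), and the treated cells received 1 μM iAs for 6 h. Chromatin was precipitated with an antibody against Nrf2 or against HIF1α, which gave 4 ChIP libraries: Nrf2 in control cells, Nrf2 with iAs, HIF1α in control cells and HIF1α with iAs. The sources differ on the antibodies: the labels give Santa Cruz (Nrf2) and Abcam (HIF1α) as suppliers, and the methods give Active Motif for both. The last of the 5 samples was input DNA, for which no peak list was analysed here. Each group was 1 library of 1 cell line, so the values below lack a replicate check, and nothing was tested between conditions.

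The study mapped both factors to ask what part they have in the change of metabolism under iAs and in the formation of cancer stem-like cells. A peak is an interval of the genome where a peak caller found more reads than its background. The lists held 3204 peaks of Nrf2 in control cells, 7743 of Nrf2 with iAs, 6008 of HIF1α in control cells and 12826 of HIF1α with iAs. They give each peak's start and end, with no height, score or read count, so the read depth behind a peak is unknown and peaks were described by presence, width and position.

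The sequences below carry the main results at these genes. The first is the whole stretch between the start sites of H2BC11 (minus strand) and H2AC11 (plus strand), chr6:27100575-27100821, the only promoter between 2 facing histone genes that peaks of both factors reached. The next pair are the stretches where the peaks of all 4 libraries overlapped, in H3C2 at chr6:26032080-26032127 and in H4C13 at chr6:27841025-27841207, both on the minus strand and both wholly in coding sequence. The last 3 are the 250 bp just upstream of H4C8 (chr6:26285763-26286012), of H4C13 (chr6:27841313-27841562) and of H4C12 (chr6:27799339-27799588), all on the minus strand, to set 2 promoters of genes with peaks of both factors beside that of a gene with no peak. All were read from GRCh37, 5′ to 3′. Capitals mark every match on either strand to the motifs that were searched, which are the HIF cores ACGTG (the first) and GCGTG (the second), the AP-1 core TGACTCA, the longer Nrf2 core TGACTCAGC that contains it, the E-box CACGTG that contains the first HIF core, the TATA box TATAAA, the CCAAT box, the octamer ATTTGCAT, the YY1 core AAGATGGCG and the cyclic AMP response element TGACGTCA (CRE). Matches that overlap run together, as the pair of TATA boxes on opposite strands beside H2AC11 does.
between H2BC11 and H2AC11: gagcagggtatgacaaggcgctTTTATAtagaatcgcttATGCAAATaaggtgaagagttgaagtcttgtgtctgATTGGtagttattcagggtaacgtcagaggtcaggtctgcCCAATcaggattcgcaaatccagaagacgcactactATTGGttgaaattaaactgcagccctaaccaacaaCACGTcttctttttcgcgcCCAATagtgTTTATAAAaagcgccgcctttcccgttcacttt
H3C2 overlap of 4 libraries: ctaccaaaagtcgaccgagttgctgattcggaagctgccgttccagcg
H4C13 overlap of 4 libraries: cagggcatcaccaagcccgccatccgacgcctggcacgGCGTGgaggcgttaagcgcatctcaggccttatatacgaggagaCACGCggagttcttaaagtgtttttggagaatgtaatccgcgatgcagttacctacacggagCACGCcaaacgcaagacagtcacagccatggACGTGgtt
H4C8 upstream: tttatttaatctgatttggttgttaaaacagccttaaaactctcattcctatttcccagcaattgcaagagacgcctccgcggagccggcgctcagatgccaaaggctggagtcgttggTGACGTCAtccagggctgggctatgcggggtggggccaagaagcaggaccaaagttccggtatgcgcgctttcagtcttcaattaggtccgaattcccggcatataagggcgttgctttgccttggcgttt
H4C13 upstream: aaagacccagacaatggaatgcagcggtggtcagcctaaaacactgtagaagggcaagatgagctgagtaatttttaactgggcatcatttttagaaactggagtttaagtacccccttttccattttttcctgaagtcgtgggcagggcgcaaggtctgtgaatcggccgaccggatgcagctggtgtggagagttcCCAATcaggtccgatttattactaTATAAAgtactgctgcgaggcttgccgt
H4C12 upstream: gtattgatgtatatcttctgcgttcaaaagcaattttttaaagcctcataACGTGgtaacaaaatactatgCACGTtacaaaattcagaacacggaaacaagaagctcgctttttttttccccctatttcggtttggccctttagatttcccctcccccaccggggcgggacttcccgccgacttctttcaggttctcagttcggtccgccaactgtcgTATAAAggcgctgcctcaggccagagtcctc
The promoter between H2BC11 and H2AC11 is built of the elements known from histone promoters, with 4 CCAAT boxes, 3 TATA boxes and 1 octamer, and it held 1 HIF core. The shared stretch in H3C2 held no match, and that in H4C13 held 4 HIF cores. H4C12, which had no peak, carried 2 HIF cores upstream of its start, more than H4C8 or H4C13. Only 7.40% of the short stretches of the H4C12 transcript were found once in the genome, as set out below, and the sequence upstream of it was not counted. The part of repeated sequence in the lack of a peak at H4C12 was not tested, so binding there is unknown.

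Nearly the same number of histone genes had a peak without and with iAs, whereas the peak lists themselves more than doubled. Counting peaks in the gene body and up to 2 kb from it, 27 histone genes had a HIF1α peak in control cells and 28 had one with iAs. Nrf2 peaks were at 11 in each condition. Among all protein-coding genes the share with a HIF1α peak went from 24.0% to 49.3%, while among the histone genes it went from 54.0% to 56.0%. For Nrf2 the share of all genes went from 8.58% to 16.0%, while that of the histone genes was 22.0% in both conditions. At least 1 peak of any library was found at 37 histone genes (74.0%), against 55.5% of all genes.

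Histone genes are short, with a median length of 495.5 bp against 27220 bp for all protein-coding genes, so a window over the gene body is much smaller for them. In a window of equal size for every gene, 2 kb on each side of the start site, the Nrf2 peaks of control cells reached 9 histone genes (18.0%) against 2.60% of all genes. With iAs they reached 11 (22.0%) against 5.78%. HIF1α peaks reached 23 (46.0%) in control cells against 17.3% of all genes, and 27 (54.0%) with iAs against 43.8%. The share of histone genes was above that of all genes in each of the 4 libraries in this window. In percentage points, the distance for Nrf2 was about as large with iAs as in control cells, and that for HIF1α was smaller. As a multiple of the share of all genes, the share of histone genes was lower with iAs for both factors. The start sites of neighbouring histone genes are close together, and 1 peak often counted for 2 or 3 genes.

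**Figure D1:**
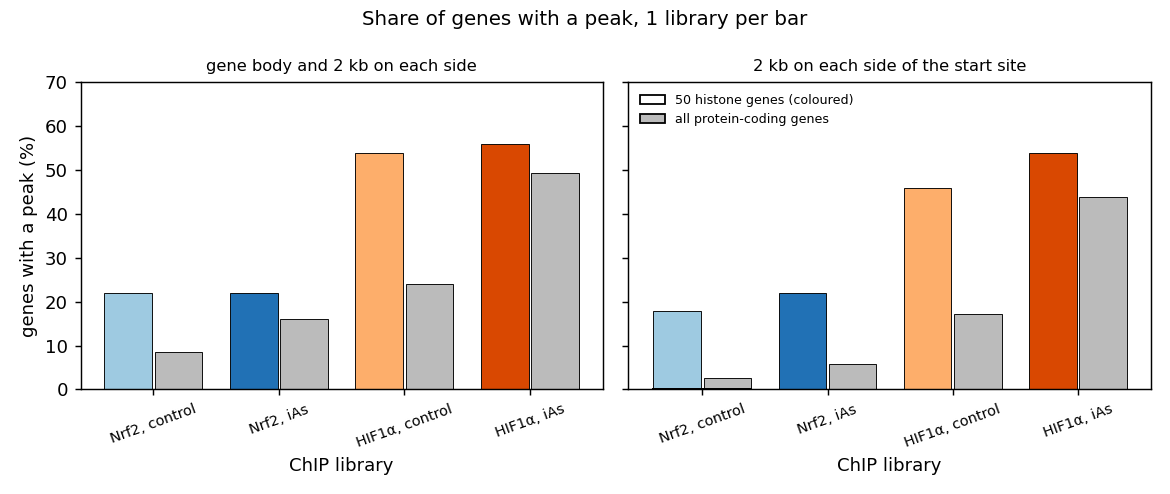
Share of genes with a peak (%, y axis) in each of the 4 ChIP libraries, for the 50 histone genes (coloured bars) and for all 20162 protein-coding genes (grey bars), over the gene body and 2 kb on each side (left) and over 2 kb on each side of the start site (right), with 1 library per bar and no error bar. From control to iAs the grey HIF1α bar rises from 24.0% to 49.3% on the left, and the coloured bar goes from 54.0% to 56.0%.

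Counted as distinct peaks, the histone genes had 7 of the 3204 Nrf2 peaks of control cells and 8 of the 7743 with iAs, a ratio of 1.14 where the whole lists had a ratio of 2.42. They had 19 of the 6008 HIF1α peaks of control cells and 22 of the 12826 with iAs, a ratio of 1.16 against 2.13. Per 1000 peaks of the library, the histone genes therefore held 2.18 and 1.03 Nrf2 peaks and 3.16 and 1.72 HIF1α peaks, without and with iAs. In the whole 2 Mb between 26 and 28 Mb there were 7 Nrf2 peaks in control cells, all of them at histone genes, and 12 with iAs. HIF1α had 33 peaks there in control cells, 14 of them away from the histone genes, and 30 with iAs, 8 of them away from the histone genes.

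The near-constant totals were made up of gains and losses. Of the histone genes, 18 (36.0%) had a HIF1α peak with iAs that overlapped no HIF1α peak of control cells, against 38.0% of all genes, so gains were about as common as elsewhere. In the other direction, 12 (24%) had a HIF1α peak of control cells that overlapped none with iAs, against 8.08% of all genes. For Nrf2, 6 histone genes (12%) had a peak found with iAs alone, against 11.2% of all genes. Within 2 kb of the start site these were 5 (10%), against 3.72%, and for HIF1α with iAs alone 16 (32%), against 32.5%. An Nrf2 peak of control cells without a counterpart with iAs was at 5 histone genes (10%), where 0.640% of all genes had one. Those 5 genes rested on 3 peaks, at H1-2, at H4C3 within the long annotated H2BC4, and at H3C12 beside H2AC17. In the Nrf2 list of control cells as a whole, 94.6% of peaks overlapped a peak with iAs, while 4 of the 7 at histone genes (57.1%) did. Of the HIF1α peaks of control cells, 9 of the 19 at histone genes (47.4%) and 53.7% of all overlapped a peak with iAs.

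**Figure D2:**
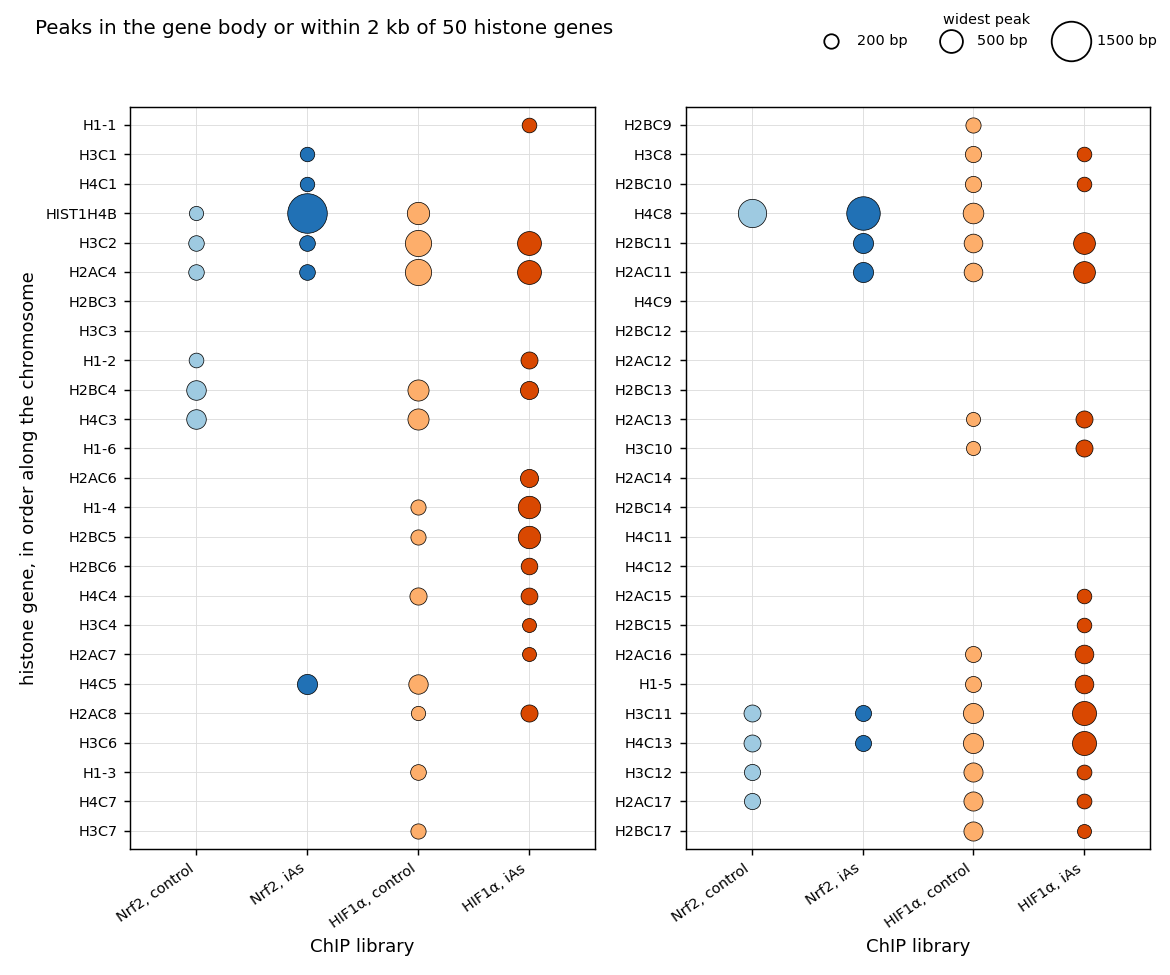
Peaks at each of the 50 histone genes, in order along chromosome 6 from the top left to the bottom right (y axis), in the 4 ChIP libraries (x axis). A filled circle marks a peak in the gene body or within 2 kb, its area grows with the width of the widest such peak (bp, key at the top right), and an empty cell has none. H4C13, H3C11, H3C2 and H2AC4 are filled in all 4 columns, and 13 genes are empty throughout.

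The linker histone genes had mostly HIF1α peaks. Of the 6 H1 genes, 3 had a HIF1α peak in control cells and 4 with iAs, 1 had an Nrf2 peak in control cells and 0 had one with iAs. The HIF1α peaks of control cells were at H1-4 (chr6:26156551-26156771, 221 bp) and H1-3 (chr6:26235036-26235271, 236 bp), and the third gene, H1-5, was reached by the peak at its neighbour H2AC16. With iAs, H1-5 also had a HIF1α peak in its own coding sequence (chr6:27835062-27835314, 253 bp). With iAs the H1-4 peak was 482 bp wide (chr6:26156535-26157016), the widest at an H1 gene, and no HIF1α peak was listed at H1-3. H1-1 and H1-2, the latter among the H1 genes that most cells express, had HIF1α peaks with iAs but none in control cells. At H1-2 the Nrf2 peak of control cells (chr6:26056462-26056668, 207 bp) overlapped a HIF1α peak that was listed with iAs (chr6:26056477-26056754, 278 bp). H1-6, the testis-specific linker histone, had no peak in any library.

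The H2A genes had the largest gain of HIF1α peaks among the 5 families. HIF1α peaks were at 6 of 11 H2A genes in control cells and at 9 with iAs, and 7 had one that was listed with iAs alone. Within 2 kb of the start site, 4 H2A genes gained a HIF1α peak, 5 kept one and 0 lost one. Of these 4, H2AC13 had no new peak. The peak of its neighbour H3C10 was listed in both conditions, and its edge entered the H2AC13 window with iAs alone. H2AC6, H2AC7 and H2AC15 had no peak in control cells, and with iAs each had a HIF1α peak whose centre lay in its own coding sequence, 239, 202 and 158 bp downstream of the start. The widest HIF1α peak with iAs that reached an H2A gene was 546 bp wide and centred in H3C2, within 2 kb of H2AC4. At H2AC11 it was 454 bp wide (chr6:27100787-27101240). The HIF1α peaks of control cells that were nearest to H2A genes were at H2AC8 (chr6:26216581-26216776, 196 bp), H2AC11 (chr6:27100668-27101002, 335 bp) and H2AC16 (chr6:27833073-27833320, 248 bp). At H2AC8 the control peak was centred 471 bp upstream of the start, and the iAs peak, which did not overlap it, 260 bp downstream. H2AC12 and H2AC14 had no peak.

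The H2B genes were reached mainly by peaks of their neighbours. HIF1α peaks were at 6 of 12 H2B genes in control cells and at 7 with iAs, and Nrf2 peaks at 1 in each condition. The single HIF1α peak of control cells within an H2B coding sequence was at H2BC9 (chr6:26251848-26252049, 202 bp), and another lay 1137 bp downstream of the H2BC17 start (chr6:27862165-27862515, 351 bp). Neither overlapped a peak with iAs. The widest HIF1α peak with iAs that reached an H2B gene was that of 482 bp at H1-4, within 2 kb of H2BC5, and the widest Nrf2 peak with iAs was that of 386 bp at the start of H2AC11 (chr6:27100787-27101172), whose centre lay in the H2AC11 coding sequence. H2BC4 is annotated over 37610 bp, across H4C3 and H1-6, and its peaks of control cells were those of H4C3. H2BC3, H2BC12, H2BC13 and H2BC14 had no peak.

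The H3 genes had the same number of genes with a peak in both conditions for each factor, namely 3 of 10 for Nrf2 and 6 of 10 for HIF1α. H3C2 had peaks in all 4 libraries. Its Nrf2 peak was 232 bp wide in control cells (chr6:26032080-26032311) and 236 bp with iAs (chr6:26031892-26032127), and its HIF1α peak was 658 bp wide in control cells (chr6:26031889-26032546), the widest of that library at a histone gene, and 546 bp with iAs (chr6:26031843-26032388). The other HIF1α peaks of control cells in H3 genes were at H3C7 (chr6:26250647-26250868, 222 bp), H3C8 (chr6:26271419-26271673, 255 bp), H3C10 (chr6:27777960-27778151, 192 bp) and H3C11 (chr6:27839779-27840167, 389 bp). That at H3C7 had no counterpart with iAs. H3C12 had an Nrf2 peak in control cells (chr6:27858387-27858638, 252 bp), no Nrf2 peak with iAs, and a HIF1α peak with iAs that overlapped the same stretch (chr6:27858286-27858496, 211 bp). H3C1 was reached by the Nrf2 peak with iAs at H4C1. The widest peaks with iAs that reached an H3 gene were those centred at H4C13, within 2 kb of H3C11, at 248 bp for Nrf2 and 554 bp for HIF1α. H3C3 and H3C6 had no peak.

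The H4 genes went the other way. HIF1α peaks were at 6 of 11 H4 genes in control cells and at 2 with iAs, and 0 H4 genes had a HIF1α peak listed with iAs alone. Within 2 kb of the start site, 4 H4 genes lost their HIF1α peak, 2 kept it and 0 gained one, whereas the other 39 histone genes together lost 3, kept 14 and gained 11. The 11 included H2AC13, which had no new peak. They also included H2BC4, H3C4 and H2BC15, which were reached by the same peaks as H2AC6, H2AC7 and H2AC15. The 4 H4 genes that lost it were HIST1H4B (chr6:26027208-26027685, 478 bp), H4C3 (chr6:26103978-26104405, 428 bp), H4C5 (chr6:26204593-26204953, 361 bp) and H4C8, which had a pair of peaks (chr6:26285612-26286020, 409 bp, and chr6:26286652-26286889, 238 bp). The 2 that kept one were H4C4 (chr6:26189201-26189483, 283 bp in control cells, 272 bp with iAs) and H4C13 (chr6:27840970-27841313, 344 bp in control cells, and chr6:27841025-27841578, 554 bp with iAs). The peak of 554 bp was the widest of the HIF1α library with iAs at any histone gene. This family was also the one with most Nrf2 peaks, at 4 genes in control cells and 5 with iAs, and at 6 in either.

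At HIST1H4B, H4C5 and H4C8 Nrf2 peaks were listed with iAs and HIF1α peaks were not. H4C8 had an Nrf2 peak of 767 bp in control cells (chr6:26285174-26285940) that was 1075 bp wide with iAs (chr6:26284960-26286034), while its HIF1α peaks were listed in control cells alone. H4C5 had a HIF1α peak in control cells, and with iAs an Nrf2 peak that overlapped it (chr6:26204805-26205192, 388 bp). H4C3 had overlapping peaks of Nrf2 (chr6:26103995-26104361, 367 bp) and HIF1α in control cells and none with iAs. H4C13 had Nrf2 peaks of 276 bp (chr6:27841015-27841290) and 248 bp (chr6:27840960-27841207). H4C1 had an Nrf2 peak with iAs (chr6:26021980-26022180, 201 bp) as its single peak. Near HIST1H4B the Nrf2 peaks lay past the end of the gene, at 194 bp in width in control cells (chr6:26025963-26026156) and 1500 bp with iAs (chr6:26025470-26026969), the widest Nrf2 peak near any histone gene, with another of 181 bp beside it. H4C7, H4C9, H4C11 and H4C12 had no peak.

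These differences between families rest on small numbers, and the counts with iAs depend on narrow peaks. When each list was reduced to its widest 3204 peaks, 15 histone genes had a HIF1α peak in control cells (30% against 15% of all genes) and 4 with iAs (8% against 18.4%), and 0 had one with iAs alone (12.4% of all genes did). With the wider 50% of each list, the counts were 15 in control cells (30% against 14.1% of all genes) and 8 with iAs (16% against 32.5%).

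Counted over the gene body and 2 kb, more histone genes had peaks of both factors in control cells than with iAs. Peaks of both were at 10 histone genes (20%) in control cells, against 5.03% of all genes, and at 6 (12%) with iAs, against 11.8%. Within 2 kb of the start site, both were at 6 (12%) with iAs, against 4.69% of all genes. In that window H2BC4, H3C12 and H2AC17 no longer had both in control cells, so most of the difference between conditions was gone. Peaks of both factors at a gene need not overlap. In control cells they did not at HIST1H4B, nor at H3C12 and H2AC17, where the HIF1α peak was the one nearest to H2BC17. Of the 7 Nrf2 peaks of control cells at histone genes, 6 (85.7%) overlapped a HIF1α peak of either condition, where 32% of all Nrf2 peaks of that library did. With iAs it was 5 of 8 (62.5%) against 29.4%. Of the HIF1α peaks of control cells, 6 of 19 (31.6%) overlapped an Nrf2 peak of either condition, against 31.5% of all. Of those with iAs, 5 of 22 (22.7%) did, against 9.22%. Within the same condition, 4 of 7 Nrf2 peaks of control cells (57.1%, against 27.7% of all) and 3 of 8 with iAs (37.5%, against 14.7%) overlapped a HIF1α peak. HIF1α peaks overlapped an Nrf2 peak of the same condition at 4 of 19 in control cells (21.1%, against 14.8%) and 3 of 22 with iAs (13.6%, against 8.95%). The genes with peaks in all 4 libraries were H3C2, H2AC4, H3C11 and H4C13, and they rested on 2 sites, printed above. The shared stretch was 48 bp long and centred 224 bp downstream of the start in H3C2, and 183 bp long and centred 196 bp downstream in H4C13.

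Most peaks at histone genes had their centre downstream of the start, in coding sequence. A peak centred there could still reach across the start into the promoter. The HIF1α peak of control cells in H3C2 did so (chr6:26031889-26032546, with the start at chr6:26032327 on the minus strand). Among peaks within 2 kb of a start site, the centre was downstream of the start for 7 of 7 Nrf2 peaks in control cells and 7 of 7 with iAs, against 33% and 47.8% of all such peaks in those libraries. For HIF1α it was downstream for 14 of 19 (73.7%) in control cells against 38%, and for 20 of 21 (95.2%) with iAs against 67.5%. The median centre lay 133 and 229 bp downstream for Nrf2, and 95 and 212 bp downstream for HIF1α, without and with iAs. Over all peaks near a start, the medians were -101, -19.5, -43 and 117 bp in the same order, a minus sign meaning upstream. The centre was within histone coding sequence for 6 of 7 and 6 of 8 Nrf2 peaks and for 12 of 19 and 18 of 22 HIF1α peaks. Over the whole lists 1.31%, 1.9%, 4.79% and 15.8% of centres lay in coding sequence. Most of these genes have no intron and short transcripts (median 486 bp), so that most of the sequence just after their start is coding.

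**Figure D3:**
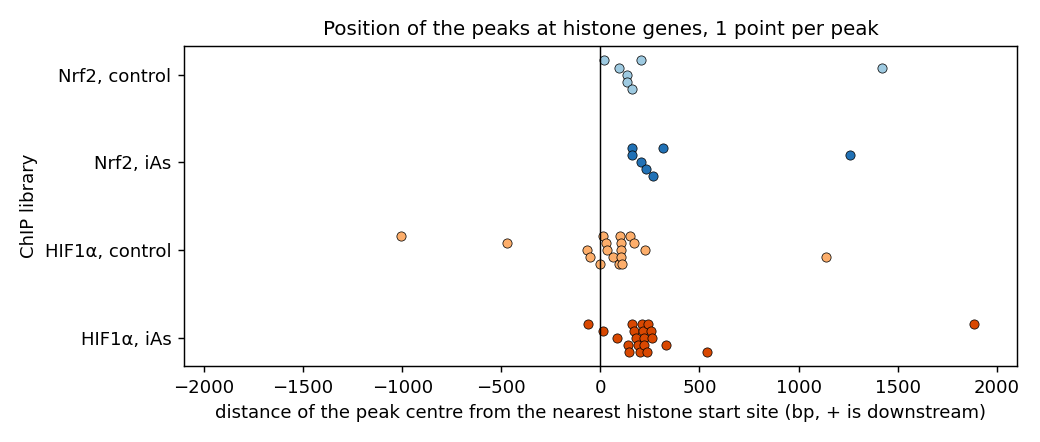
Distance of each peak centre from the nearest histone start site (bp, x axis, positive downstream) in the 4 ChIP libraries (y axis), 1 point per peak, with points stacked where they would overlap and the vertical line at the start site. Peaks more than 2 kb from a start are not drawn. Of the HIF1α points, 14 of 19 lie to the right of the line in control cells and 20 of 21 with iAs, and all Nrf2 points do.

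Where a HIF1α peak was present in both conditions, its centre lay further into the gene with iAs. Of 9 HIF1α peaks at histone genes that overlapped exactly 1 peak of the other condition, 8 had a centre further downstream with iAs, with a median difference of 114 bp (-160 to 178 bp). Over all 2414 such HIF1α peaks within 2 kb of a start, 65.5% were further downstream and the median difference was 45 bp, so a downstream move was not particular to histone genes. At H4C4, for example, the centre went from 2 bp upstream of the start to 146 bp downstream, and at H2AC11 from 13 to 191 bp downstream. H2AC16 went from 101 to 221 bp, H3C8 from 95 to 236 bp, H1-4 from 104 to 218 bp and H3C2 from 110 to 212 bp. H3C10 (226 to 255 bp) and H3C11 (151 to 172 bp) moved little. H4C13 was the exception, from 171 to 11 bp, since its peak with iAs also reached upstream. The peak with iAs was narrower than that of control cells at H4C4, H3C8, H3C2 and H3C11, with width ratios of 0.961, 0.804, 0.83 and 0.779, and wider at the other 5 genes. The part of peak width in the move was not tested. For Nrf2, 3 of 4 such peaks had a centre further downstream with iAs (median difference 64.5 bp), against 52.6% of 380 and a median of 5 bp over all genes.

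**Figure D4:**
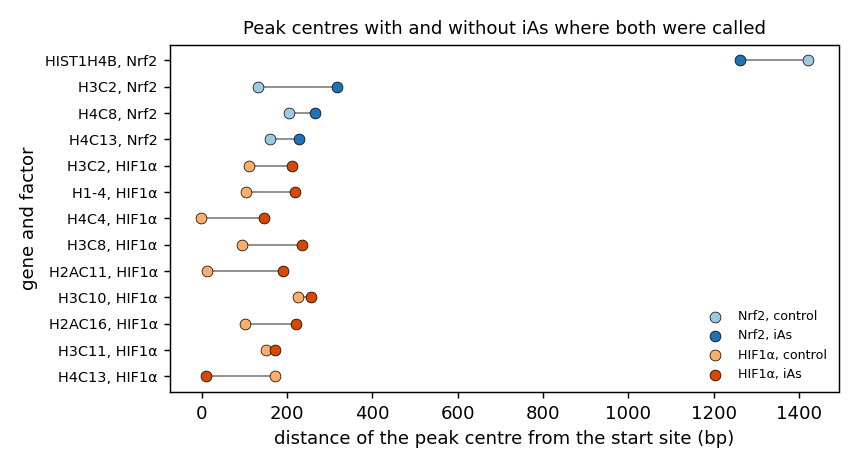
Distance of the peak centre from the start site (bp, x axis, positive downstream) without and with iAs for the 13 peaks at histone genes that overlapped exactly 1 peak of the other condition (y axis), each pair of points joined by a line. For HIF1α the dark point (iAs) is to the right of the light one (control) at 8 of 9 genes, H4C13 being the exception.

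The median width of HIF1α peaks at histone genes was 283 bp (192 to 658 bp) in control cells and 273 bp (188 to 554 bp) with iAs, whereas the median of all HIF1α peaks was 276 and 340 bp. For Nrf2 it was 252 bp (194 to 767 bp) and 317 bp (181 to 1500 bp), against 309 and 333 bp. Where 1 peak of each condition overlapped, the median ratio of widths, iAs over control, was 1.35 for HIF1α (9 pairs, against 1.54 over all genes) and 1.21 for Nrf2 (4 pairs, against 1.36). With iAs, HIF1α peaks of up to 2434 bp were listed elsewhere in the genome.

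The exact letters TGACTCA and TGACTCAGC were almost absent from the Nrf2 peaks at histone genes. Nrf2 elements with other letters were not searched, so their absence cannot be read from these counts. Each peak was searched up to 100 bp from its centre, on either strand. TGACTCA, the AP-1 core within the longer Nrf2 core, was found in 1 of 7 Nrf2 peaks of control cells at histone genes, against 47.8% of all Nrf2 peaks of that library. That peak was the one beyond the end of HIST1H4B. With iAs it was in 0 of 8, against 38.3%. The longer Nrf2 core TGACTCAGC was in 0 of 7 and 0 of 8, against 23.8% and 15.6% of all. The HIF cores differed from each other: GCGTG was in 9 of 19 HIF1α peaks of control cells (47.4%) and 8 of 22 with iAs (36.4%), against 33.3% and 41.3% of all, while ACGTG was in 1 of 19 (5.26%) and 3 of 22 (13.6%), against 23.6% and 19.6%. HIF cores were also searched in the Nrf2 peaks at histone genes. In control cells GCGTG was in 4 of 7 (57.1%) against 16.3% of all Nrf2 peaks, and ACGTG in 1 of 7 (14.3%) against 11.3%. With iAs GCGTG was in 3 of 8 (37.5%) against 16.3%, and ACGTG in 4 of 8 (50%) against 12.4%. Most of these windows lie in coding sequence, which is closely related among the genes of a family, so that their letters are not independent.

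The promoters, taken from 250 bp upstream to 50 bp downstream of the start, held the elements known from histone genes. A CCAAT box was in 43 of 50 (86.0%), against 35.9% of all 20162 promoters, with one in every H1, H2A, H2B and H3 gene and in 4 of 11 H4 genes. The TATA box was in 34 (68.0%) against 9.79%. The octamer ATTTGCAT was in 18 (36.0%) against 1.58%, in 9 H2A and 9 H2B genes and in no other family. CRE, added after the sequence upstream of H4C8 had been read, was in 8 (16.0%) against 2.69%, at H3C2, H4C5, H4C8, H2BC12, H2AC12, H2AC14, H2BC14 and H2AC16. It lay within 100 bp of the centre in 2 of the 19 HIF1α peaks of control cells at histone genes, those of H4C5 and of H4C8, where it was first seen. In whole peaks it was in 3 of the 19. ACGTG was in 13 histone promoters (26%) against 23.2%, and GCGTG in 6 (12%) against 44.9%. The AP-1 core, the Nrf2 core, the E-box and the YY1 core were in 0 of 50, against 3.57%, 0.402%, 8.73% and 2.82% of all promoters. Because facing genes share a promoter, some matches were counted for both genes.

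**Figure D5:**
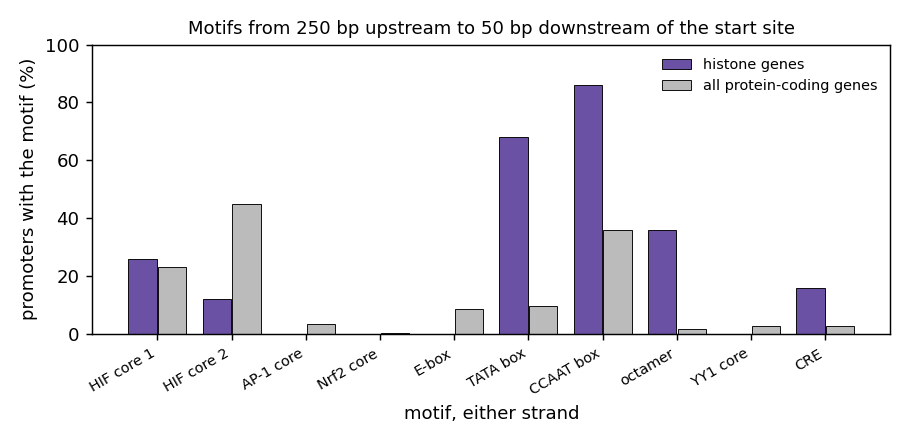
Share of promoters (%, y axis) with at least 1 match to each motif on either strand (x axis) for the 50 histone genes and for all 20162 protein-coding genes, from 250 bp upstream to 50 bp downstream of the start site. HIF core 1 is ACGTG and HIF core 2 is GCGTG; the histone bars stand above the grey ones for the TATA box (68.0%), the CCAAT box (86.0%), the octamer (36.0%) and CRE (16.0%), and below for HIF core 2 (12%).

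Start sites on opposite strands and at most 1 kb apart formed 8 pairs, with 193 to 978 bp between them. Peaks in either gene or in the stretch between them were found at 5 pairs, with Nrf2 at 0 pairs in control cells and 1 with iAs, and HIF1α at 2 and 4. The stretch between H2BC11 and H2AC11 was the only one that both factors reached. Their peaks there were centred 157 bp (Nrf2 with iAs), 13 bp (HIF1α in control cells) and 191 bp (HIF1α with iAs) downstream of the H2AC11 start, so that they covered the H2AC11 side of the shared promoter. The peaks with iAs began at chr6:27100787, past the HIF core of that stretch, which lay in the HIF1α peak of control cells. H3C7 and H2BC9 had a pair of HIF1α peaks in control cells, 1 in each gene, and none with iAs. At H2AC6, H2AC15 and H2AC17 a peak with iAs lay in the H2A gene of the pair. The pairs of H2BC12 with H2AC12, H2BC13 with H2AC13, and H2AC14 with H2BC14 had none.

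The 13 histone genes with no peak were H2BC3, H3C3, H1-6, H3C6, H4C7, H4C9, H2BC12, H2AC12, H2BC13, H2AC14, H2BC14, H4C11 and H4C12. Histone genes of a family are near copies of each other, and reads that match several of them equally cannot be placed. As a measure of this, 28 of the 50 genes had all of their 50-base stretches once in the genome, and 11 had under 90% of them. The lowest were H4C12 (7.40%) and H4C11 (7.94%), both without a peak, followed by H2AC14 (33.7%), H2AC13 (36.5%), H2BC12 (42.8%), H2BC15 (75.7%) and H2BC6 (78.1%). Under 90% were 5 of the 13 genes with no peak and 6 of the 37 with one. The stretches were counted over the canonical transcript, and every peak of those 6 genes lay outside it. At H2AC13, for example, the peaks were those of H3C10. Some genes above 90%, such as H3C4 (100%), also had peaks outside their transcript alone. At H4C11 and H4C12 a read of 50 bases from most of the gene could not be given 1 place, and the read length of the study is not given in the sources used here. The part of repeated sequence in the lack of peaks was not tested.

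Other genes of histone supply were counted in the same way, over the gene body and 2 kb. Over all protein-coding genes, 24.0% had a HIF1α peak in control cells and 49.3% with iAs, and 8.58% and 16.0% had an Nrf2 peak. Of 16 replication-dependent histone genes elsewhere, 0 had an Nrf2 peak in control cells and 2 with iAs, and 5 and 6 had a HIF1α peak. Their widest HIF1α peak with iAs was shared by H2AC25 and H2BC26 on chromosome 1 (553 bp, 402 bp in control cells), followed by that of H2AC20 and H2AC21 (345 bp, 261 bp in control cells). Of 11 replication-independent histone genes, which supply variants outside S phase, 3 had a HIF1α peak in control cells and 9 with iAs. The widest of them with iAs were wider than any in the clusters: 1531 bp at H2AX, the variant phosphorylated at DNA breaks, 1006 bp at H3-3A and 721 bp at H3-3B, both of which encode H3.3, and 764 bp at H2AZ2. The peak of 721 bp was in the H3-3B window, but its centre lay at -5301 bp from the canonical start, a minus sign meaning upstream. H2AX and H2AZ2 had no HIF1α peak in control cells, while H3-3A had one of 212 bp and H3-3B one of 736 bp.

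Of 20 genes for histone gene transcription and mRNA 3′ processing, 10 had a HIF1α peak in control cells and 12 with iAs, and 0 and 3 had an Nrf2 peak. Among all genes these shares were 24.0% and 49.3% for HIF1α, and 8.58% and 16.0% for Nrf2. The widest with iAs were at the cap-binding genes NCBP1 (1138 bp, 493 bp in control cells) and NCBP2 (1068 bp, 451 bp), at CPSF3, which encodes the nuclease that cuts histone pre-mRNA (752 bp, 502 bp), and at SLBP, which encodes the stem-loop binding protein (733 bp, 266 bp). Of 11 histone chaperone genes, 3 had a HIF1α peak in control cells and 8 with iAs, and 1 and 2 had an Nrf2 peak. The widest with iAs were at HIRA (957 bp), NASP (792 bp), ASF1B (762 bp, none in control cells) and RBBP4 (761 bp). Each of these lay above the 554 bp that was the widest HIF1α peak with iAs in the clusters. Of the 17 other protein-coding genes between 26 and 28 Mb, 3 had a HIF1α peak in control cells and 4 with iAs, and 0 and 1 had an Nrf2 peak. They were led with iAs by HMGN4 (448 bp), ZNF184 (229 bp) and ZNF391 (209 bp), and the fourth, ENSG00000282988, shared the peak of H3C4 and H2AC7 (chr6:26199226-26199413, 188 bp).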

How the data were processed

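ChIP-seq of Nrf2 and HIF1α was performed on BEAS-2B cells by the authors, with 1 library per antibody and condition (4 libraries) and 1 input sample. The submitters' processing notes name BWA, MACS2 2.1.0 and hg19. The methods state that tags were down-sampled within a group and that MACS or SICER was used, without naming the caller of each list. The authors deposited peak intervals as start and end positions on hg19, without heights, p-values or read counts, so depth is unknown and no interval for counting error can be given. A merged list of 21088 regions, deposited with them, was not used as a library.

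Starts were converted to 1-based positions. Genes were protein-coding genes of GENCODE release 44 on GRCh37. A peak was assigned to each gene whose body, with 2 kb added on both sides, it overlapped by at least 1 bp. The start site was that of the canonical transcript, or of the gene for the 1 histone gene without one. Peaks found in 1 condition alone overlapped none of the other condition by 1 bp. Motifs were searched on both strands of GRCh37 as exact letters. Uniqueness was the share of 50-base stretches of the canonical transcript (or of the gene without one) found once in the genome on either strand. Python 3.11.15, NumPy 2.4.6 and matplotlib 3.10.9 were used. A recount of genes by bedtools 2.31.1 had equal results, and the steps were tested on simulated data. No statistical test was run.

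The genes and lists were chosen with earlier results of these data known. Named are all peaks of control cells at histone genes, the widest peaks with iAs of each family, genes with peaks of both factors, genes with no peak, and up to 4 genes of each other list with the widest HIF1α peak with iAs. The alternatives were the gene body alone, 10 kb in place of 2 kb, the start site window, the wider 50% of peaks, the widest 3204 peaks of each list and the peak centre in the window. The canonical transcript with 2 kb, motifs in the whole peak and the motif TGACGTCA were added after the data were seen.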

Additional observations from a re-analysis of the deposited data

How the results depend on the processing

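No paired analysis was possible because each group was 1 library. Over 7 counts of histone genes and their alternatives, 25 of 49 values were within 1.5 times the reported one and 24 moved further. The start site window, the peak centre and the canonical transcript (added after the data were seen) moved none of the 7 counts by more than 1.5 times. With the gene body alone, Nrf2 peaks were at 7 genes in control cells (14% against 7.59% of all genes) and 6 with iAs (12%, 14.5%), where 11 each were reported. HIF1α peaks were at 17 in control cells (34%, 19.9%; reported 27), HIF1α peaks with iAs alone at 11 (22%, 33.5%; 18), Nrf2 peaks with iAs alone at 3 (6%, 10.1%; 6) and both factors with iAs at 3 (6%, 10.1%; 6). With 10 kb these values were, in the same order, 18 (36%, 10.6%), 18 (36%, 19.6%), 41 (82%, 29%), 29 (58%, 43.5%), 13 (26%, 13.7%) and 18 (36%, 14.9%). With the wider 50% of peaks, Nrf2 peaks were at 3 genes in control cells (6%, 4.9%) and 5 with iAs (10%, 9.91%), HIF1α peaks at 15 (30%, 14.1%) and 8 (16%, 32.5%), HIF1α with iAs alone at 2 (4%, 24.8%) and both factors with iAs at 2 (4%, 5.29%). With the 3204 widest peaks of each list, Nrf2 peaks with iAs were at 3 genes (6%, 8.64%), HIF1α peaks at 15 in control cells (30%, 15%) and 4 with iAs (8%, 18.4%), HIF1α with iAs alone at 0 (0%, 12.4%), Nrf2 with iAs alone at 1 (2%, 2.88%) and both with iAs at 0 (0%, 3.03%). Under these last 2 settings HIF1α reached fewer histone genes with iAs than in control cells, since the peaks at histone genes with iAs were narrow for their library. In whole peaks, TGACTCA was in 1 of 8 Nrf2 peaks with iAs at histone genes in place of 0. Width stood in for strength, which the lists do not hold.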
